A study of Homo sapiens with 8 samples.

Results

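U-87MG is an established human glioblastoma cell line. It is kept as an adherent culture, and the stock that repositories distribute does not match the tumour after which it is named, so it stands for glioblastoma cells of uncertain patient origin. The study exposed these cells to indole-3-carboxaldehyde (I3CA, 50 µM), or to the solvent alone. The values below are from the cells given the solvent, dimethyl sulfoxide (DMSO, at most 0.2% of the medium), and describe their resting expression state: 4 of the study's 8 arrays, with no comparison to I3CA. Cells were plated 24 h before DMSO was added and were collected 24 h after it. Their medium was high-glucose DMEM without phenol red, with 10% fetal bovine serum, 2 mM glutamine, 1 mM pyruvate, penicillin and streptomycin, which both groups shared. The labels give the cell line as U-87MG and name no transgene or knockdown for these samples. They call the 4 arrays biological replicates and do not say whether each came from a culture of its own, so the spread below is that between these 4 samples and may be partly technical.

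Glioblastoma cells are placed along a range from glial and progenitor-like to mesenchymal states. The glial end is marked by genes of astrocytes and oligodendrocyte precursors, such as the intermediate filament gene GFAP or the transcription factor gene SOX10. The mesenchymal end is marked by genes of cytoskeleton, matrix and wound repair, such as VIM, CD44 and CHI3L1. Cultured glioma cells also secrete cytokines, growth factors and proteases, carry receptors for many of them, and take up much glucose and glutamine.

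RNA was hybridised to Affymetrix whole-transcript arrays, on which a group of probes (a probe set) reads 1 transcript. The genes are the 11822 whose symbol stands alone on a row of the deposited table of 13486 rows, with the brightest row for each gene. Values are log2 signals. Probe sets differ in how strongly they bind, so the percentile given for a gene is the place of its mean signal among the 11822 genes and not a ratio of RNA amounts. A low percentile does not show that a gene is silent, since the deposited values carry no detection call. Means of genes ran from 7.32 to 13.69 with a median of 8.83, and a mean of 10.47 was the edge of the top 10% (1183 genes). The arrays themselves had medians of 8.81 to 8.83 over all rows and correlated across genes at 0.958 to 0.973 (Pearson).

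Between-array spread is given as the standard deviation of the 4 log2 values (SD, n = 4). Its median over all genes was 0.14, 90% of genes lay at or below 0.28 and the widest gene had 1.11. An SD from 4 values is imprecise: its 95% interval runs from 0.566 to 3.73 times the value, if values are normally distributed. Spread was wider among dim genes. The median SD was 0.20 in the dimmest 10% of genes and 0.09 in the brightest 10%, and an SD above 0.3 was seen in 24.1% of the former and 1.18% of the latter. Of the 1183 genes in the top 10% by their mean, 1008 (85.2%) were in the top 10% on each of the 4 arrays. The lowest 25% was less repeatable, with 1876 of 2955 genes (63.5%) in it on every array.

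**Figure D1:**
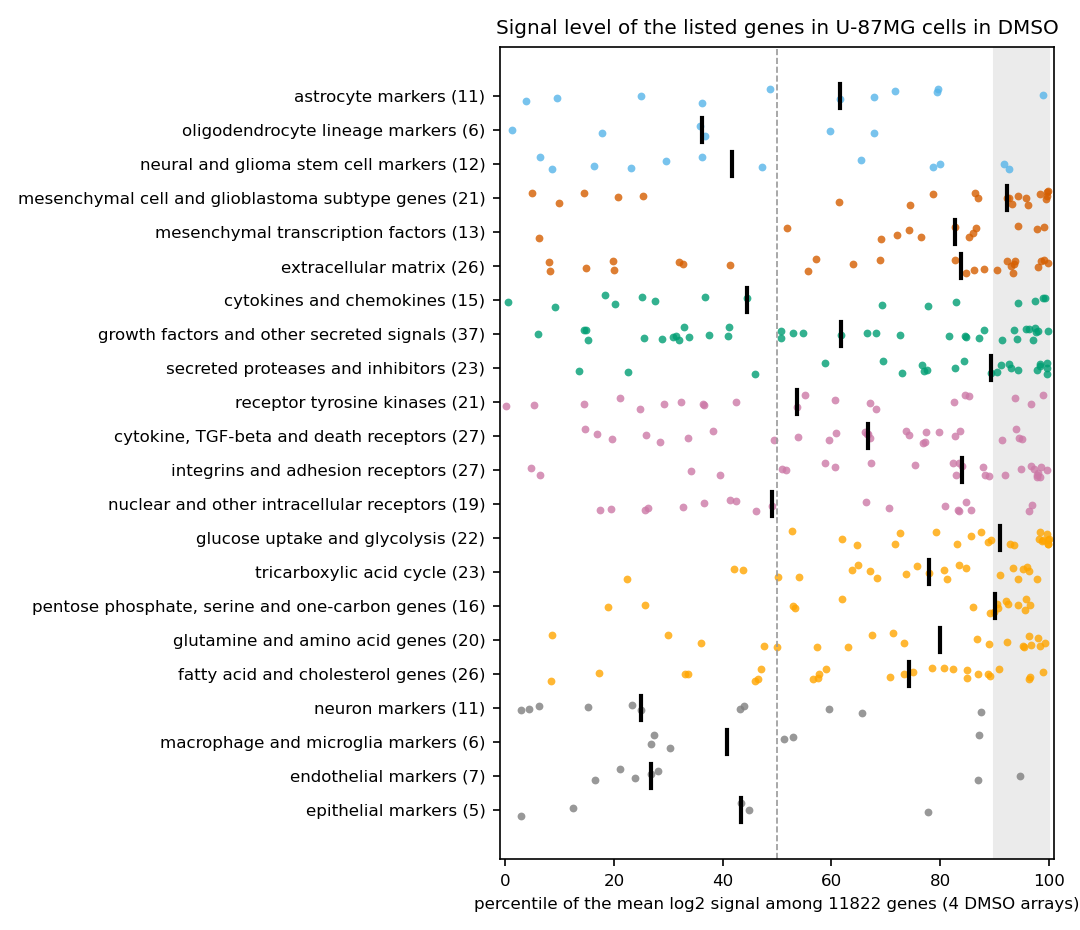
Percentile of the mean log2 signal (x axis, 4 DMSO arrays, among 11822 genes) of each measured member of 22 gene lists (y axis, number of members in brackets). Points are genes, black bars list medians, the dashed line the 50th percentile and the grey band the top 10%; mesenchymal subtype genes have their median at 92.3, glycolysis genes at 91.1 and neuron markers at 24.9.

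Across the gene classes, mesenchymal genes had a median percentile of 85.7 (60 genes), metabolic genes 83.5 (107 genes), secreted factors 76.7 (75 genes), receptors 67.0 (94 genes) and glial genes 47.3 (29 genes). The glial class pools 3 lists that differed in level. These are 11 astrocyte markers (median 61.5), 6 oligodendrocyte lineage markers (36.2) and 12 neural and glioma stem cell markers (41.7), some of which are not glial genes. Markers of other cell types had a median of 28.1 (29 genes), and housekeeping reference genes, mostly of the cytoskeleton and translation, 99.0 (17 genes). The reference genes also held dimmer members, with a lowest mean of 8.73, below the median of 8.83 over all genes. Over replicates 1 to 3, PPIA averaged 8.70, GUSB 8.76, HPRT1 9.04 and TBP 9.53. By construction the median over all genes is 50. In all, 497 of 637 listed genes were measured, on 29 of 31 lists, and 13 of these lists had a median at or above the 75th percentile. The plot of percentiles by list shows that members of 1 list often lie far apart.

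Astrocyte markers ranged from percentile 3.81 to 99.0. GFAP, the intermediate filament that defines mature astrocytes, had log2 signals of 8.52, 7.70, 8.55 and 8.33 in replicates 1 to 4, and its mean of 8.28 ± 0.39 stood at percentile 24.9. Replicate 2 was the low array and the other 3 lay close together. ALDH1L1, a folate enzyme used as a pan-astrocyte marker, gave 8.03, 7.86, 8.04 and 7.04 (percentile 3.81), with replicate 4 the lowest. SLC1A3, the glial glutamate transporter GLAST, was near the middle at 8.80 ± 0.08 (percentile 48.7). By contrast CLU, which encodes the secreted chaperone clusterin, was in the top 10% on each array at 12.12, 12.03, 12.04 and 12.02 (percentile 99.0), where the arrays differed by little. SOX9, a glial transcription factor, was at 9.53 ± 0.17 (percentile 71.7), and GJA1, which encodes the gap junction protein connexin 43, at 9.37 ± 0.17 (percentile 67.8). Over the 11 measured astrocyte markers the median percentile was 61.5 ± 2.22 (SD of the median over 4 arrays). Among them 1 was in the top 10%, where 10.0% of all genes lie by definition, and 3 were in the lowest 25%, which holds 25.0% of all genes. In bulk RNA, fewer cells with a transcript and less of it per cell cannot be told apart. S100B, AQP4, SLC1A2, FABP7, APOE, SPARCL1 and ATP1B2 were not analysed here.

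The 6 measured oligodendrocyte lineage markers had a median percentile of 36.2 ± 6.39 (SD over 4 arrays), and 0 of them were in the top 10%. SOX10, the transcription factor that specifies this lineage, read 7.65, 7.42, 8.42 and 6.89, a mean of 7.60 ± 0.63 and percentile 1.16. Its replicate 3 was high and replicate 4 low. PDGFRA, the growth factor receptor of oligodendrocyte precursors, was at 8.11 ± 0.31 (percentile 17.8), and CSPG4, the NG2 proteoglycan of the same cells, at 8.50 ± 0.05 (percentile 35.7). CNP, a myelin enzyme, had the highest signal of the list at 9.37 ± 0.16 (percentile 67.9).

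Several of the best known neural and glioma stem cell markers had low signals. NES, the intermediate filament nestin of neural progenitors, read 8.30, 8.05, 8.03 and 7.94 (percentile 16.3), and PROM1, which encodes CD133, read 8.07, 8.04, 7.77 and 7.67 (percentile 8.54). All 4 arrays put both genes below the gene median of 8.83. L1CAM, a neural adhesion molecule, was at 7.83 ± 0.13 (percentile 6.44) and NOTCH1, a receptor of progenitor maintenance, at 8.37 ± 0.11 (percentile 29.5). The list median was 41.7 ± 5.22 over 12 genes. The members in the top 10% were ALCAM, an adhesion molecule that other cell types express too (10.71 ± 0.12, percentile 92.6), and ID1, an inhibitor of differentiation factors (10.63 ± 0.24, percentile 91.8). EZH2, the methyltransferase of histone H3 in Polycomb repression, was at 9.89 ± 0.10 (percentile 80.0). Some members, SOX2 and DLL3 among them, were not analysed here.

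**Figure D2:**
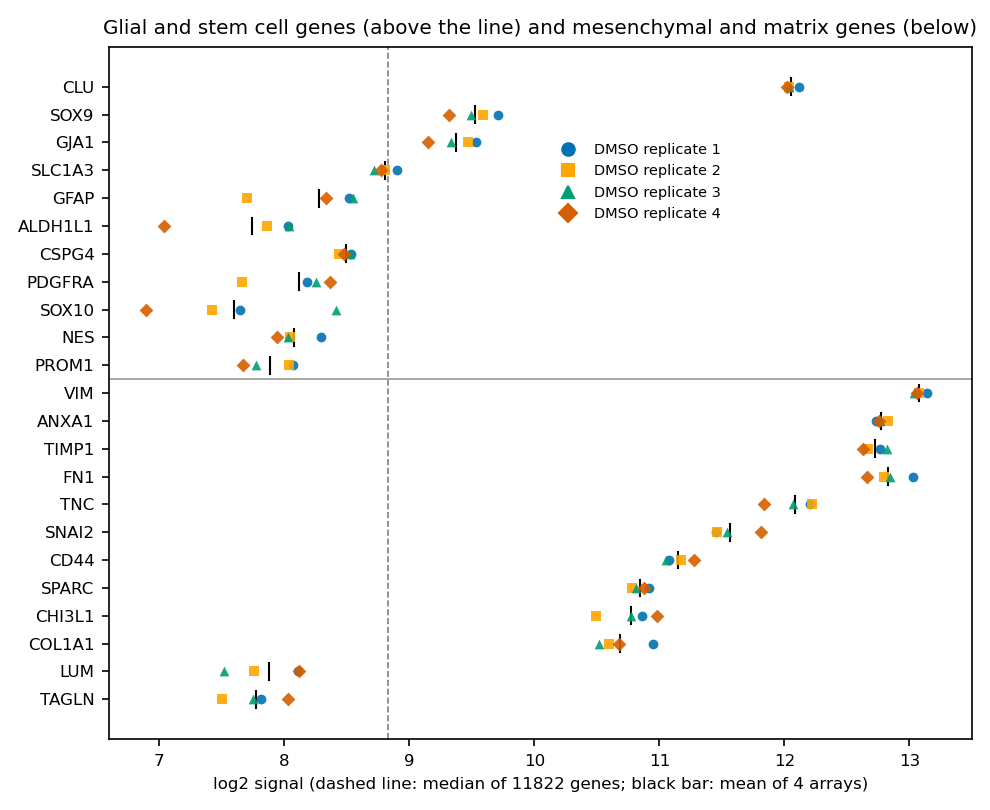
Log2 signal (x axis) of 11 glial and stem cell genes (above the grey line) and 12 mesenchymal and matrix genes (below it) on each of the 4 DMSO arrays (symbols), with the mean of 4 arrays as a black bar and the median of 11822 genes as a dashed line. CLU among the glial genes reads 12.02 to 12.12 while GFAP, SOX10, NES and PROM1 lie left of the dashed line; among the mesenchymal genes LUM and TAGLN lie left of it.

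Mesenchymal cell and subtype genes gave high signals. Their median SD between arrays was 0.10, against 0.14 over all genes and 0.09 among the brightest 10% of genes, since SDs fell with signal. VIM, the intermediate filament vimentin of mesenchymal cells, read 13.14, 13.08, 13.04 and 13.06 and ranked 14 of 11822 genes. Its SD of 0.04 was under the median of 0.09 among the brightest 10% of genes. ANXA1, a membrane-binding annexin, was at 12.77 ± 0.04 (rank 35), and TIMP1, an inhibitor of matrix metalloproteinases, at 12.72 ± 0.09 (rank 39). CD44, the hyaluronan receptor used to define the mesenchymal subtype, read 11.08, 11.17, 11.06 and 11.28 (percentile 95.7), and CHI3L1, the secreted glycoprotein YKL-40, 10.86, 10.49, 10.78 and 10.98 (percentile 93.2). The range of CHI3L1 came from replicate 2, the low array. TGFBI, a matrix protein induced by TGF-beta, was at 12.37 ± 0.10 and CAV1, the coat protein of caveolae, at 11.78 ± 0.06. Of 21 measured mesenchymal cell and subtype genes 11 were in the top 10% and 4 in the lowest 25%, and the list median was 92.3 ± 1.46. An SD above 0.3 was seen in 0 of the 21, against 7.86% of all genes and 1.18% of the brightest 10%, so the count is near that of genes at this level.

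The same list also held low signals. TAGLN, the smooth muscle protein transgelin, was at 7.77 ± 0.22 (percentile 4.82), ACTA2, smooth muscle actin, at 8.18 ± 0.20 (percentile 20.7), and RELB, an NF-kappa-B subunit listed for the mesenchymal subtype, at 7.92 ± 0.15 (percentile 9.93). CDH2, N-cadherin, lay between at 9.64 ± 0.27 (percentile 74.4). Other contractile genes of the list were brighter, with MYL9, a myosin light chain, at 10.69 ± 0.16 (percentile 92.3), TPM1, a tropomyosin, at 10.25 ± 0.25 and CALD1, the actin-binding caldesmon, at 10.22 ± 0.09 (percentile 86.5). The smooth muscle and contractile members thus lay at both low and high levels. Some members, ANXA2 among them, were not analysed here.

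Among 13 measured transcription factors of mesenchymal states, FOSL1, an AP-1 subunit, had the highest signal at 12.11 ± 0.20 (percentile 99.1). SNAI2, the repressor Slug, followed at 11.57 ± 0.17 (percentile 97.8), and BHLHE40, a basic helix-loop-helix repressor, at 10.92 ± 0.14 (percentile 94.3). STAT3, named among master regulators of this state, was at 10.23 ± 0.06 (percentile 86.7) and CEBPB at 9.72 ± 0.06 (percentile 76.6). WWTR1, which encodes the Hippo effector TAZ, was at 10.20 ± 0.16 (percentile 86.1), and its paralog YAP1 at 9.54 ± 0.08 (percentile 72.2). CEBPD was the low member at 7.82 ± 0.12 (percentile 6.21). The list had a median percentile of 82.7 ± 2.57, with 3 members in the top 10% and 1 in the lowest 25%.

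Extracellular matrix genes ranged from among the brightest of the table to the lowest 10%. FN1, fibronectin, read 13.03, 12.79, 12.84 and 12.66 (rank 27), highest in replicate 1. TNC, the glioma matrix protein tenascin C, was at 12.08 ± 0.18 (percentile 99.1), LOXL2, a collagen cross-linking oxidase, at 11.87 ± 0.17 (percentile 98.6) and COL6A3, a collagen VI chain, at 11.60 ± 0.15 (percentile 98.0). SPARC, which binds collagen, stood at 10.85 ± 0.06 and COL1A1, a collagen I chain, at 10.68 ± 0.19, both in the top 10%. At the low end LUM, the proteoglycan lumican, was at 7.88 ± 0.29 (percentile 8.10), HAS2, a hyaluronan synthase, at 7.88 ± 0.18 (percentile 8.14) and COL3A1, a fibrillar collagen, at 8.16 ± 0.18. Over 26 members the median percentile was 83.8 ± 4.01, with 10 in the top 10% and 5 in the lowest 25%. VCAN, the proteoglycan versican, had the widest spread of the list, with 10.63, 10.43, 9.80 and 9.96 (SD 0.39), and its replicates 1 and 2 lay above replicates 3 and 4. Replicate 1 was the highest array for 16 of the 26 matrix genes, against 23.3% of all genes.

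Secreted proteases and their inhibitors had a median percentile of 89.4 ± 0.89, and 11 of 23 were in the top 10%. MMP2, the gelatinase that cleaves basement membrane collagen, read 12.83, 12.81, 12.78 and 12.86, rank 29, and differed little between arrays. CTSD and CTSB, cathepsins of the lysosome that tumour cells also secrete, were at 12.70 ± 0.07 and 12.66 ± 0.08. MMP3, stromelysin, was at 11.73 ± 0.22 (percentile 98.3) and PLAU, urokinase, at 10.75 ± 0.31 (percentile 93.0). Their relatives were not all high. MMP9, the other gelatinase, was at 8.02 ± 0.18 (percentile 13.6), PLAT, tissue plasminogen activator, at 8.22 ± 0.28 (percentile 22.5) and MMP1, an interstitial collagenase, at 8.73 ± 0.40 (percentile 46.0). MMP2 and MMP9 were thus at opposite ends of the list. TFPI2, a Kunitz-type protease inhibitor of the matrix outside these lists, was named for its place among the 20 highest means, at 13.30 ± 0.15 (rank 8).

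Growth factors and other secreted signals had a lower list median of 61.8 ± 1.01, but 10 of 37 were in the top 10%. STC1, the glycoprotein stanniocalcin 1, was the brightest with 12.88, 13.07, 13.02 and 12.42 (rank 24), replicate 4 being the lowest array. GREM1, an antagonist of bone morphogenetic proteins, was at 11.62 ± 0.15 (percentile 98.0), EREG, the EGF receptor ligand epiregulin, at 11.51 ± 0.12 (percentile 97.6) and SPP1, osteopontin, at 11.47 ± 0.03 (percentile 97.4). VEGFA, the main angiogenic factor, read 11.17, 11.35, 11.28 and 10.79 (percentile 95.8). TGFB1 was at 10.89 ± 0.02 (percentile 94.1), with close agreement between arrays, and TGFB2 at 8.62 ± 0.21 (percentile 41.1). HGF, the ligand of the receptor MET, was near the middle at 8.85 ± 0.27 (percentile 50.7), and PDGFA at 8.42 ± 0.18 (percentile 31.9) and IGFBP2, an IGF-binding protein, at 8.04 ± 0.22 (percentile 14.4) were lower. IGFBP3, of the same family, read 10.49, 10.13, 10.86 and 9.82 and had the widest spread of this list (SD 0.45).

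Cytokines and chemokines divided into a few bright genes and many dim ones, with a list median of 44.5 ± 5.73. CSF3, the granulocyte colony-stimulating factor G-CSF, was the brightest with 12.15, 12.76, 12.51 and 11.77 (mean 12.30 ± 0.43, percentile 99.3). CX3CL1, the membrane-bound chemokine fractalkine, was at 11.98 ± 0.29, MIF at 11.48 ± 0.12 and IL1B, interleukin 1 beta, at 10.94 ± 0.68, and these 4 were all the list members in the top 10%. IL8, the neutrophil chemokine now named CXCL8, was at percentile 69.3, LIF, an interleukin 6 family cytokine, at 77.7, and IL6 itself at 25.1. CCL2, a monocyte chemoattractant, was at percentile 20.1, CXCL12 at 9.16 and CXCL2 at 0.482. An SD above 0.3 was seen in 8 of the 15, the highest share of the 29 lists, against 7.86% of all genes. The list's median SD was 0.33. These wide spreads are taken up array by array further on.

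Receptor tyrosine kinases had a median percentile of 53.7 ± 3.03 over 21 genes. AXL, the receptor for GAS6, was the brightest with 12.05, 11.97, 11.91 and 11.97 (percentile 98.9), and its arrays lay close together. MET, the HGF receptor, was at 11.35 ± 0.14 (percentile 96.8) and FGFR1, a fibroblast growth factor receptor, at 10.85 ± 0.04 (percentile 93.8). These 3 were the members in the top 10%. EGFR, the receptor most often amplified in glioblastoma, read 10.18, 10.02, 9.88 and 9.94 (percentile 82.5), below the top 10% on each array. PDGFRB was at 8.96 ± 0.13 (percentile 55.1), INSR, the insulin receptor, at 8.04 ± 0.06 (percentile 14.5) and NTRK2, the receptor of brain-derived neurotrophic factor, at 7.45 ± 0.27 (percentile 0.161), lowest on the list. ERBB2, a partner of EGFR, had the widest spread with 8.93, 7.76, 8.89 and 8.47 (SD 0.54), of which replicate 2 was the low array.

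Cytokine, TGF-beta and death receptors had a median percentile of 66.7 ± 0.60 over 27 genes. An SD above 0.3 was seen in 0 of the 27, against 7.86% of all genes and 5.16% of genes near the list's median signal. The count is thus near that of genes at this level. TNFRSF12A, the TWEAK receptor Fn14, was brightest at 11.03 ± 0.14 (percentile 95.1), then IL13RA1 at 10.95 ± 0.09 (percentile 94.5). IL13RA2, the decoy receptor of interleukin 13 found on many glioblastomas, read 9.79, 10.08, 9.98 and 9.68 (percentile 79.8). The receptors for interleukin 6 family cytokines differed from one another. IL6ST, the shared signalling subunit gp130, was at 10.89 ± 0.15 (percentile 94.1), OSMR at 10.06 ± 0.16 (percentile 83.7) and LIFR at 9.10 ± 0.13 (percentile 59.5). IL6R, the subunit that binds interleukin 6, was at 8.16 ± 0.19 (percentile 19.7). TGFBR2, the ligand-binding TGF-beta receptor, was at 10.60 ± 0.07 (percentile 91.5) and TGFBR1, its kinase partner, at 9.76 ± 0.08 (percentile 77.2).

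Integrins and other adhesion receptors were brighter as a list, with a median percentile of 84.0 ± 1.31 over 27 genes and 10 in the top 10%. The list median on single arrays was 84.1 to 87.1. ITGA3, a laminin-binding integrin chain, was at 12.58 ± 0.04 (rank 48), ITGA5, the fibronectin-binding chain, at 11.74 ± 0.05 (percentile 98.4) and ITGB1, the beta chain that pairs with both, at 11.44 ± 0.16 (percentile 97.3). ITGAV and ITGB3, which together form the vitronectin receptor, were at 10.32 ± 0.15 and 10.64 ± 0.09. The tetraspanins CD63 (11.86 ± 0.04), CD81 (11.64 ± 0.08) and CD151 (11.57 ± 0.07) were likewise in the top 10%. ITGA4, an integrin chain of leukocytes, at 7.77 ± 0.14 (percentile 4.79) and ITGB8 at 7.82 ± 0.24 (percentile 6.35) had the lowest signals.

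Nuclear and other intracellular receptors had a median percentile of 49.1 ± 1.60 over 19 genes. On single arrays the list median was higher, at 50.4 to 53.7. AHR, the aryl hydrocarbon receptor, of which the labels count I3CA as a known or presumed ligand, read 11.35, 11.23, 11.32 and 11.11, a mean of 11.25 ± 0.11 and percentile 96.3. It was in the top 10% on each array, as was NR4A1, an orphan nuclear receptor, at 11.36 ± 0.17 (percentile 96.8). ARNT, the partner with which AHR binds DNA, read 9.95, 9.98, 9.96 and 10.26 (percentile 83.2). Replicates 1 to 3 of ARNT lay within a narrow band and replicate 4 above it. NR3C1, the glucocorticoid receptor, was at 9.93 ± 0.19 (percentile 80.8), ESR1, an estrogen receptor, at 8.29 ± 0.26 (percentile 25.6) and PPARA at 8.10 ± 0.14 (percentile 17.4).

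Glycolysis genes had a median percentile of 91.1 ± 0.88 over 22 members, of which 11 were in the top 10% and 0 in the lowest 25%. PKM, pyruvate kinase, read 13.45, 13.34, 13.38 and 13.39 (rank 5), ENO1, enolase, 13.27, 13.22, 13.02 and 13.17 (rank 10) and GAPDH 13.09, 13.20, 13.14 and 13.00 (rank 12). LDHA, which makes lactate from pyruvate, was at 12.88 ± 0.13. Processed pseudogenes of several of these enzymes are nearly identical to them, so part of their signal cannot be assigned. Among hexokinases HK1 was at 11.70 ± 0.08 (percentile 98.3) and HK2, the form associated with tumours, at 9.86 ± 0.11 (percentile 79.3). The glucose transporter SLC2A1 was at 10.38 ± 0.16 (percentile 88.8), SLC2A3 at 9.18 ± 0.23 (percentile 62.0) and the lactate exporter SLC16A3 at 10.72 ± 0.17 (percentile 92.8). The median SD of the list was 0.11 and 0 of its 22 members exceeded 0.3, against 7.86% of all genes and 1.18% of the brightest 10%.

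Tricarboxylic acid cycle genes had a median percentile of 77.9 ± 2.51, with 7 of 23 in the top 10%. IDH3G, a subunit of the NAD-dependent isocitrate dehydrogenase, was at 11.59 ± 0.14 (percentile 97.9), MDH2, mitochondrial malate dehydrogenase, at 11.27 ± 0.06 and CS, citrate synthase, at 11.20 ± 0.06. IDH1, the cytosolic enzyme mutated in some gliomas, was at 9.69 ± 0.05 (percentile 75.7) and IDH2 at 8.64 ± 0.12 (percentile 42.1). PC, pyruvate carboxylase, was the 1 member in the lowest 25%, at 8.21 ± 0.34 (percentile 22.3). Of the 16 pentose phosphate, serine and one-carbon genes 8 were in the top 10%, and their median was 90.2 ± 1.99. PHGDH, which opens serine synthesis, was at 10.67 ± 0.18 (percentile 92.2), and MTHFD2, a mitochondrial folate enzyme, at 10.52 ± 0.26 (percentile 90.6). SHMT2, the mitochondrial serine hydroxymethyltransferase, was at 10.51 ± 0.11 (percentile 90.5) and its cytosolic relative SHMT1 at 8.29 ± 0.16 (percentile 25.8).

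Glutamine and amino acid genes had a median percentile of 80.1 ± 4.17 over 20 members, with 8 in the top 10%. SLC38A2, a neutral amino acid transporter, was the brightest at 12.21 ± 0.06 (percentile 99.3). SLC7A5, the leucine transporter LAT1, was at 11.62 ± 0.44 and SLC3A2, the heavy chain it shares with the cystine transporter SLC7A11, at 11.05 ± 0.06. SLC1A5, a glutamine transporter, was at 10.67 ± 0.20 (percentile 92.2) and BCAT1, the cytosolic branched-chain aminotransferase, at 10.24 ± 0.16 (percentile 86.8), while the mitochondrial BCAT2 was at 7.89 ± 0.21 (percentile 8.50). Fatty acid and cholesterol genes had a median of 74.2 ± 1.54 over 26 genes, 4 of them in the top 10%. An SD above 0.3 was seen in 0 of the 26, against 7.86% of all genes and 2.28% of genes near the list's median signal. ACLY, which makes cytosolic acetyl-CoA, was at 12.01 ± 0.03 (percentile 98.9) and SCD, a fatty acid desaturase, at 11.27 ± 0.06 (percentile 96.4). FASN, fatty acid synthase, at 9.08 ± 0.18 (percentile 58.9), HMGCS1, an early enzyme of the mevalonate pathway, at 8.45 ± 0.07 (percentile 33.5) and MVD, a later one, at 7.88 ± 0.13 (percentile 8.37) lay lower.

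Of 29 measured markers of cells that a glioma culture should not hold, 11 were in the lowest 25% and 1 in the top 10%. The 11 neuron markers had a median percentile of 24.9, with 0 in the top 10% and 6 in the lowest 25%. On single arrays their median was higher, at 26.7 to 32.8. Endothelial markers had a median percentile of 26.8, macrophage and microglia markers 40.8 and epithelial markers 43.3. The last 2 were not below the oligodendrocyte lineage (36.2) and were near the stem cell markers (41.7). The epithelial median was lower on single arrays, at 35.6 to 42.2, where that of the oligodendrocyte lineage was 26.5 to 41.3. SYN1, a synaptic vesicle protein, was at 7.70 ± 0.12 (percentile 2.78) and DCX, of migrating neuroblasts, at 7.82 ± 0.23 (percentile 6.15). ENO2, neuronal enolase, was at 10.28 ± 0.18 (percentile 87.5); it also belongs to the glycolysis list. Of the 6 macrophage markers PTPRC, the leukocyte antigen CD45, was at 8.38 ± 0.27 (percentile 30.3), whereas HLA-DRA, an MHC class II chain, was at 10.26 ± 0.14 (percentile 87.1). Of the 7 endothelial markers VWF, von Willebrand factor, was at 8.34 ± 0.05 (percentile 28.1) and KDR, a VEGF receptor, at 8.19 ± 0.19 (percentile 21.1). ENG, the TGF-beta co-receptor endoglin, at 10.97 ± 0.19 (percentile 94.7) and MCAM, an adhesion molecule, at 10.25 ± 0.04 stood apart from them. Among 5 epithelial markers EPCAM was at 7.70 ± 0.16 (percentile 2.87) and CDH1, E-cadherin, at 8.70 ± 0.07 (percentile 44.9). The basal keratin gene KRT5 read 9.18, 10.08, 9.50 and 10.40, with replicates 2 and 4 above replicates 1 and 3. None of the 11 lymphocyte markers and none of the 3 genes listed as deleted in U-87MG (CDKN2A, CDKN2B and MTAP) was analysed here.

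The 20 genes with the highest means ran from 12.95 to 13.69, with SDs of 0.02 to 0.15. The metallothionein gene MT2A, which binds zinc and copper, was first at 13.69 ± 0.06. Mitochondrially encoded subunits of the respiratory chain followed, COX1 at 13.53 ± 0.06, ND2 at 13.53 ± 0.10 and CYTB at 13.38 ± 0.08. COX1 is read here as the mitochondrial gene, but RefSeq also lists that symbol as a synonym of PTGS1. Translation and cytoskeleton genes among the 20 included RPS7 (13.30 ± 0.04), EEF2 (13.01 ± 0.02), TUBB (13.01 ± 0.06) and TUBB4B (13.09 ± 0.04). MT1CP and POTEKP, also among them, are pseudogenes of metallothionein and actin families, and their probes may read the active genes.

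**Figure D3:**
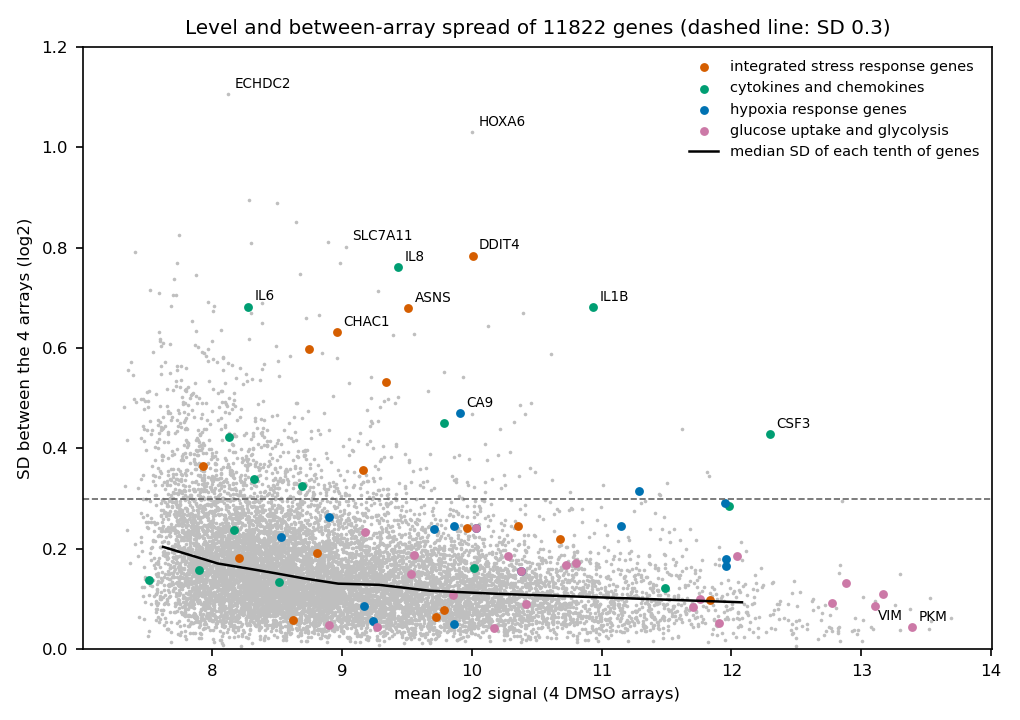
Standard deviation between the 4 DMSO arrays (y axis, log2) against mean log2 signal (x axis) of 11822 genes (grey), with integrated stress response, cytokine, hypoxia response and glycolysis genes in colour, the median SD of each 10% of genes as a black line and an SD of 0.3 as a dashed line. The line runs from 0.20 for the dimmest to 0.09 for the brightest genes, while SLC7A11, DDIT4, IL8, IL1B and CSF3 stand well above it.

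The spread was not shared out evenly among the arrays. An SD above 0.5 was seen in 132 genes, 1.12% of all. Replicate 4 was the array farthest from the mean of the other 3 in 52 of these (39.4%), against 31.7% of all genes. Replicate 2 was farthest in 38 (28.8%, against 24.1% of all genes). Replicates 1 and 3 were farthest in 21 each (15.9%, against 22.2% and 22.1% of all genes). Replicate 4 lay below the others in 34 of its 52 genes and above in 18, and replicate 2 lay below in 36 of its 38. The first principal component of the 4 arrays held 44.7% of their variance and set replicate 4, at a score of -19.5, apart from the others at 2.93 to 11.8. With 4 arrays only 3 components exist, and the other 2 held 28.3% and 27.0%. The second set replicate 1 apart, at -16.0. The third had replicates 3 and 2 at its ends, at -13.7 and 11.5. Without replicate 4 the median SD was 0.12 and 800 genes exceeded 0.3, compared with 929 genes on all 4 arrays. Leaving out any other array left 1003 to 1113 such genes. The labels name no batch, slide or scan date, and the part of these in the result was not tested.

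Among single genes the widest spreads belonged to ECHDC2 and HOXA6. ECHDC2, an enoyl-CoA hydratase family gene, read 7.96, 6.79, 8.27 and 9.48 (SD 1.11), low in replicate 2 and high in replicate 4. HOXA6, a homeobox gene, read 10.51, 9.40, 8.92 and 11.18 (SD 1.03), and HOXA3, of the same gene cluster, read 10.49, 9.34, 9.90 and 10.79 (SD 0.64). Both HOXA genes were highest in replicate 4 and next highest in replicate 1. RASSF1, a Ras-association tumour suppressor gene, read 8.66, 7.75, 7.91 and 9.70, again highest in replicate 4. ZNF33B, a zinc finger gene, was alike in replicates 1 to 3 and low in replicate 4 (8.14, 8.20, 8.14 and 6.51). The eosinophil and neutrophil granule genes EPX (9.56, 7.89, 8.99 and 9.50) and AZU1 (10.93, 9.41, 10.63 and 10.59) were both low in replicate 2. Of the 20 highest SDs 13 belonged to genes below the median signal. Replicate 4 was farthest in 11 of the 20, replicate 2 in 6, replicate 3 in 3 and replicate 1 in 0. Over all genes replicate 4 was farthest in 31.7% and replicate 2 in 24.1%.

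**Figure D4:**
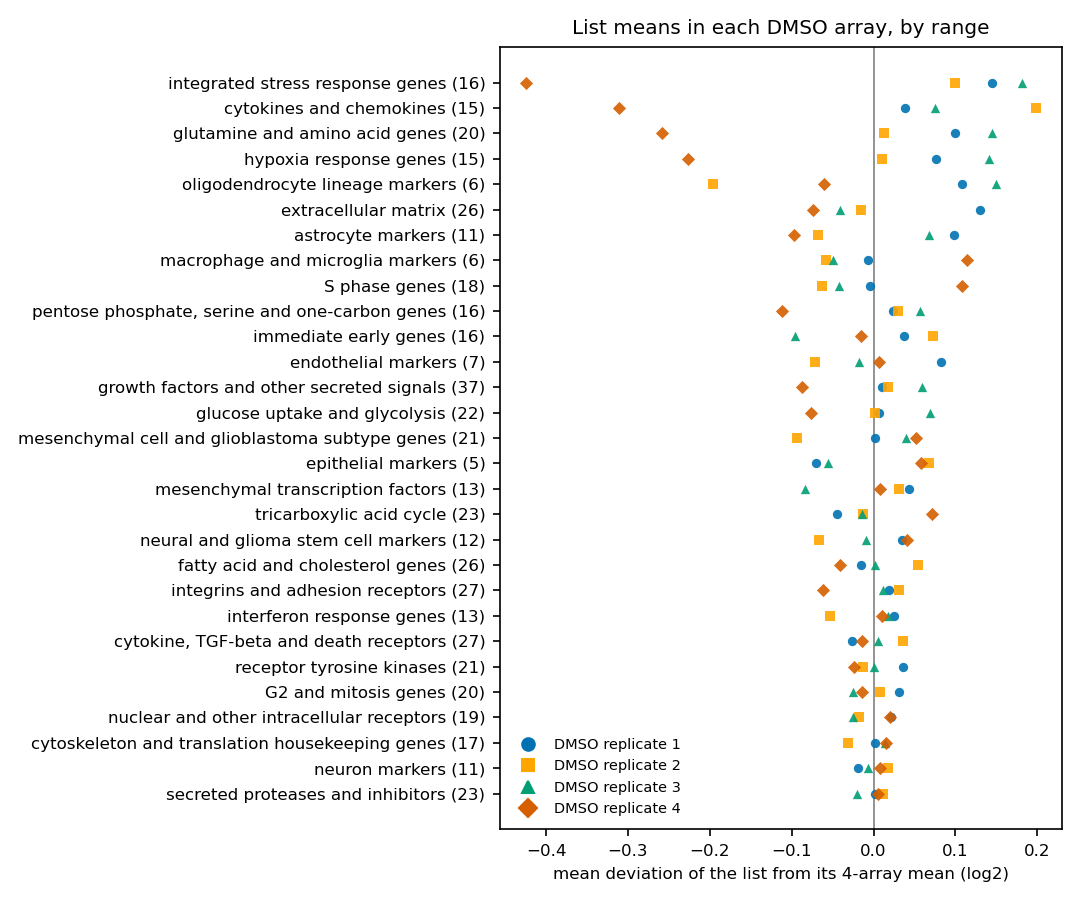
Mean deviation of each list from its 4-array mean (x axis, log2) on each DMSO array (symbols) for 29 lists (y axis, number of genes in brackets), in order of range. The integrated stress response list has the widest range, with means of 9.62, 9.58, 9.66 and 9.05 in replicates 1 to 4.

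Members of several gene groups were low together in replicate 4. The integrated stress response is the program in which the factor ATF4 turns on amino acid, redox and translation genes when amino acids run short or proteins misfold. The mean of its 16 measured genes was 9.62, 9.58, 9.66 and 9.05 in replicates 1 to 4, so replicate 4 lay 0.57 (log2) below the mean of the other 3. Replicate 4 was the lowest array for 12 of the 16, against 29.4% of all genes. Of the 16, 7 had an SD above 0.3 on all 4 arrays, against 7.86% of all genes. Without replicate 4 there were 2 of the 16, against 800 of all 11822 genes. The list's median SD was 0.24 on all 4 arrays and 0.12 without replicate 4, against 0.14 and 0.12 over all genes. The list's median percentile was 69.0 with an SD of 14.9 over the arrays, the widest of the 29 lists.

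DDIT4, an inhibitor of the growth regulator mTORC1, read 10.59, 10.31, 10.28 and 8.85. Its replicate 4 lay 2.91-fold below the mean of the other 3, whose own SD was 0.17. ASNS, asparagine synthetase, read 9.76, 9.43, 10.24 and 8.62 (2.27-fold below), and CHAC1, which breaks down glutathione, 9.36, 9.12, 9.32 and 8.02 (2.37-fold below). In DDIT4 and CHAC1 the gap below the next array was wider than the whole range of the other 3, and in ASNS about as wide as it. TRIB3, a pseudokinase induced by ATF4, read 8.79, 8.84, 9.41 and 7.95, and SESN2, a leucine sensor of the mTORC1 pathway, 9.72, 9.57, 9.51 and 8.55. ATF4 itself differed by less, at 10.74, 10.87, 10.75 and 10.37. HSPA5, the chaperone BiP of the endoplasmic reticulum, was at 11.78, 11.89, 11.95 and 11.73, and HERPUD1, of the degradation pathway there, at 9.73, 9.90, 9.76 and 9.77. These 2 genes of the unfolded protein response had SDs of 0.10 and 0.08. Replicate 4 was narrowly the lowest array for HSPA5 but not for HERPUD1. Others of that response were lowest in replicate 4 by a wider gap. DNAJB9, a cochaperone there, read 8.23, 8.15, 7.93 and 7.42, and XBP1, one of its transcription factors, 10.42, 10.49, 10.51 and 9.99.

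Glutamine and amino acid genes were lowest in replicate 4 for 15 of 20, against 29.4% of all genes, with a list gap of -0.34. They share ASNS with the stress list. SLC7A11, the cystine importer that feeds glutathione synthesis, had the widest spread of all list members with 9.48, 9.23, 9.57 and 7.85 (SD 0.80, and 0.17 over replicates 1 to 3). Replicate 4 lay 2.99-fold below the mean of the others. SLC7A5 read 11.78, 11.64, 12.04 and 11.01 and PSAT1, a serine synthesis enzyme on another list, 10.56, 10.40, 10.90 and 9.78, both highest in replicate 3 and lowest in replicate 4. SLC38A2 and SLC3A2 were steady, with SDs of 0.06 and 0.06. Of the 20 genes 5 had an SD above 0.3, against 7.86% of all genes. Without replicate 4 there was 1 of the 20, against 800 of all 11822 genes.

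Cytokines and chemokines were lowest in replicate 4 for 9 of 15 genes, against 29.4% of all genes, and highest in it for 4, with a list gap of -0.42. IL8 read 9.61, 10.01, 9.79 and 8.32, IL1B 10.88, 11.59, 11.27 and 10.01 and IL6 8.27, 8.94, 8.56 and 7.34. Replicate 4 lay below the mean of the others by 2.80-fold for IL8, 2.36-fold for IL1B and 2.37-fold for IL6. LIF gave 9.76, 10.29, 9.89 and 9.20, and it, CSF3 and these 3 genes ran in the same order over the arrays, highest in replicate 2, then 3, 1 and 4. These named genes are all among the 9 that were lowest in replicate 4. CX3CL1, another bright member, went the other way: its mean was 11.87 over replicates 1 to 3 and higher with replicate 4 included. Without replicate 4 an SD above 0.3 was left in 4 of the 15, against 800 of all 11822 genes. Part of the spread of this list thus lay among replicates 1 to 3.

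**Figure D5:**
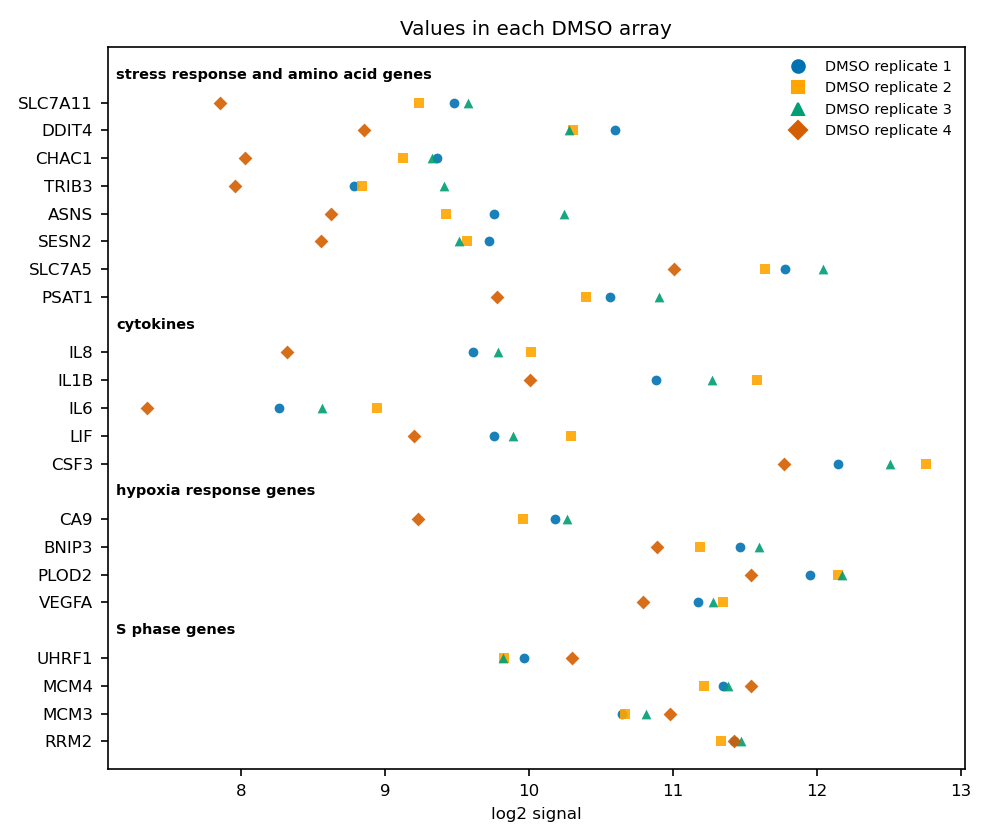
Log2 signal (x axis) of single genes on each DMSO array (symbols), grouped into stress response and amino acid genes, cytokines, hypoxia response genes and S phase genes. Replicate 4 is the lowest array in each gene drawn in the first 3 groups and the highest for UHRF1, MCM4 and MCM3. The genes drawn are a selection. In the full lists replicate 4 was lowest for 12 of 16 stress response and 15 of 20 glutamine and amino acid genes. It was lowest for 9 of 15 cytokine and 12 of 15 hypoxia response genes, and highest for 14 of 18 S phase genes.

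Hypoxia response genes, targets of the oxygen-regulated factor HIF-1, were lowest in replicate 4 for 12 of 15, against 29.4% of all genes. Their list gap was -0.30. CA9, the cell surface carbonic anhydrase, read 10.18, 9.96, 10.27 and 9.23, and BNIP3, a mitophagy receptor, 11.47, 11.19, 11.60 and 10.89. PLOD2, which hydroxylates collagen lysines, read 11.95, 12.15, 12.17 and 11.54. An SD above 0.3 was seen in 2 of the 15, against 7.86% of all genes. Without replicate 4 it was seen in 0 of the 15, against 800 of all 11822 genes. Glycolysis genes, some of them HIF-1 targets too, were lowest in replicate 4 for 11 of 22 with a smaller gap of -0.10. S phase genes were instead high in it. Replicate 4 was the highest array for 14 of 18 of them, against 28.3% of all genes, with a gap of 0.14. UHRF1, a factor of DNA methylation maintenance, read 9.97, 9.82, 9.82 and 10.30, and MCM4, a subunit of the replicative helicase, 11.35, 11.22, 11.38 and 11.54. G2 and mitosis genes had a gap of -0.02, and tricarboxylic acid cycle genes were highest in replicate 4 for 14 of 23 with a gap of 0.09. The labels record no difference in culture or handling for replicate 4, and the part of any such difference was not tested. Without replicate 4, 14 lists had a median at or above the 75th percentile, compared with 13 on all 4 arrays. The median percentile of 2 of the 29 lists then moved by more than its SD over the arrays, that of cytokines and chemokines from 44.5 to 50.9.

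Promoters of stress response, cytokine, hypoxia response and glutamine and amino acid genes, the 4 lists with gaps of -0.30 or lower in replicate 4, were searched for 3 sequence motifs in the 250 bases before the start of transcription (RefSeq, build GRCh38.p14). The motifs and genes were chosen after the values were seen. They are the composite element bound by C/EBP and ATF4 dimers (TGATGNAA), an NF-kappa-B site (GGNNTTTCC) and the core of the HIF-1 element (ACGTG), each on both strands. Of 35116 promoter windows in the RefSeq table, 3.14% held the first, 5.48% the second and 18.5% the third. Some genes have several windows, and of all 27305 genes 3.89% held the first in at least 1 window, 6.69% the second and 21.7% the third. The sequences below, 5′ to 3′ on the gene's strand, have the match in capitals. ASNS lies at chr7:97872409-97872658 (minus strand), CHAC1 at chr15:40953221-40953470 (plus), CXCL8, the current symbol of IL8, at chr4:73740319-73740568 (plus), IL6 at chr7:22726950-22727199 (plus) and CA9 at chr9:35673678-35673927 (plus).
ASNS: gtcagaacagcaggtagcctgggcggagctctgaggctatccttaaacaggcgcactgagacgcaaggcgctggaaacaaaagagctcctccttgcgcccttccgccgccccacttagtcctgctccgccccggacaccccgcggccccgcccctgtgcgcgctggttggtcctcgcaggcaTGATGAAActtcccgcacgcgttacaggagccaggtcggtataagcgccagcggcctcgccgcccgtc
CHAC1: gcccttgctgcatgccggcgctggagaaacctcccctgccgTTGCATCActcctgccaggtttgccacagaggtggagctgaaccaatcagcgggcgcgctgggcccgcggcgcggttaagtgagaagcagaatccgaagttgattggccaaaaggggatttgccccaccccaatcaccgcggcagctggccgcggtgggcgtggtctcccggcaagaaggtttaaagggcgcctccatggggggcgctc
CXCL8: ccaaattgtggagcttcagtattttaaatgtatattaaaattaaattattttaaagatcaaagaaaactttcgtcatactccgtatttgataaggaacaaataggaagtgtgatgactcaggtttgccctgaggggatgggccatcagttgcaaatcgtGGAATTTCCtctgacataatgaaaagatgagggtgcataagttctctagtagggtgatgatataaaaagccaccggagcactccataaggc
IL6: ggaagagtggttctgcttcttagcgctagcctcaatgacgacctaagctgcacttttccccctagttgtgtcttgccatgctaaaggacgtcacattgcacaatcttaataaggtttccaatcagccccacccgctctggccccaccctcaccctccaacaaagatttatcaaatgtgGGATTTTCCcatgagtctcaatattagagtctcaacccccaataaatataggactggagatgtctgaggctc
CA9: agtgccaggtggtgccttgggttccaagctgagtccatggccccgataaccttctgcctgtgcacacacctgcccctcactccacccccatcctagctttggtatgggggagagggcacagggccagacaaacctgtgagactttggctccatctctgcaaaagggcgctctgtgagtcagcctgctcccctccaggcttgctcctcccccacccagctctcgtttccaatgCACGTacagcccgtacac

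The ASNS match begins 68 bases before the start of transcription, in 1 of 2 RefSeq windows of the gene, and that of CHAC1 209 bases before it on the opposite strand. Of the 16 stress genes 4 had this motif, which were ASNS, CHAC1, ATF3 and HERPUD1, as did 4 of the 16 glutamine and amino acid genes with a window, ASNS again among them. Of these, ATF3 read 8.33, 8.30, 7.94 and 8.25, lowest in replicate 3, and HERPUD1 was lowest in replicate 1. The NF-kappa-B motif lies 91 bases before the CXCL8 start and 72 before the IL6 start. It was found in 4 of the 9 cytokine genes with a window, in 3 of the 16 stress genes and in 0 of the hypoxia and of the amino acid genes. The short HIF-1 core was in 8 of 12 hypoxia genes with a window, CA9 among them, in 8 of the 16 amino acid genes, in 5 of the 16 stress genes and in 0 of the 9 cytokine genes. The first motif was in 0 of the cytokine and of the hypoxia genes. These matches describe the letters of the windows only.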

How the data were processed

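The deposited table held log2 values, 1 per probe set and array, that the authors made with oligo and RMA per the submitters' processing notes. RMA corrects background, quantile-normalizes arrays and summarises probes. Versions, the genome build, any filter on rows and the set of arrays normalized together are not stated in the labels. Biotin-labelled cDNA was made from 100 ng of total RNA, per the labels' protocols.

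Only the 4 DMSO columns were read. Symbols were kept as GEO's platform annotation gives them: 11850 rows had 1 symbol, 657 several and 979 were not listed. Keeping the brightest row per gene dropped 28 rows and left 11822 genes, of which 10917 had a current RefSeq symbol and 905 an older one. Means, percentiles and SDs were computed in Python 3.11.15 (pandas 2.3.3), and shrunken SDs with limma 3.58.1 (squeezeVar) in R 4.3.3. With 1 group there was nothing to test, and no p-value was computed. The members and gene lists were chosen with earlier results of these data known. Of 637 listed genes 497 were measured, 4 by an older symbol. Genes were named as list members, as the 20 highest means or SDs (also among genes at or above the median), or as AHR. Recovery of genes with wide spread, and of a list shifted on replicate 4, was tested on simulated arrays. Those arrays gave all other genes the same SD, whereas in the data SDs fell with signal. The number of arrays, 4, limits the precision of every SD. Alternatives left out each array, averaged rows, centred or renormalized arrays, changed the background, dropped dim genes, or measured spread otherwise.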

Additional observations from a re-analysis of the deposited data

Results flagged for a closer look

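In 10 of 232 genes, list means and component scores examined, the highest or lowest of the 4 arrays lay far from the other 3, where chance gives about 1 in 20, or 11.6. Of these 10, 6 were in replicate 4, 2 in replicate 2 and 1 each in replicates 1 and 3. In replicate 4, ARNT read 10.26 against 9.95 to 9.98 on the other arrays, and KDR 8.48 against 8.06 to 8.12. ZNF33B read 6.51 there against 8.14 to 8.20, NTRK2 7.05 against 7.55 to 7.63 and HMGCS1 8.35 against 8.48 to 8.49. The mean of the integrated stress response genes was 9.05 in replicate 4 and 9.58 to 9.66 elsewhere. In replicate 2, HK2 read 10.02 against 9.79 to 9.81 and SPP1 11.52 against 11.45 to 11.46. FGFR1 read 10.79 in replicate 3 against 10.86 to 10.88, and ITGB3 10.51 in replicate 1 against 10.67 to 10.70. ZNF33B and NTRK2 are dim genes, where spreads are wide in general.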

How the results depend on the processing

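The stress response gap in replicate 4 kept its sign under each alternative run, and the count of lists with a median at or above the 75th percentile lay between 11 and 14 under every alternative. No paired analysis was possible because the description covers 1 group, so replicate numbers pair nothing. The number of lists whose median SD exceeded that of all genes was 20, and 12 to 18 with 1 array left out. It was lowest without replicate 4. The number of genes with an SD above 0.3 was 929, against 185 with genes below the median signal left out and 230 with limma's shrunken SD. The number of genes with an SD above 0.5 and replicate 4 farthest was 52. It was 79 to 100 with another array left out, where SDs rest on fewer values, 11 without dim genes, and 376 at an SD above 0.3. The gap of stress response genes in replicate 4, -0.57, was -0.67 without dim genes, and -0.55 to -0.59 without any other array. With dim genes left out, percentiles refer to a brighter background and fewer members: the median was 57.4 for glial, 82.7 for mesenchymal, 79.8 for secreted, 66.2 for receptor and 74.9 for metabolic genes. With all table rows as background the receptor median was 67.7. The median percentiles of single lists moved by more than their spread over arrays in 34 of 261 recomputed values, their median SDs in 36 of 261, and the percentiles of 10 leading genes in 13 of 89. Gaps in replicate 4 changed sign under some alternative only for lists whose gap was near 0, namely mesenchymal transcription factors, secreted proteases, interferon response and immediate early genes, and neuron and endothelial markers. An array has no read depth; near the dim end, signal cannot be told from probe background.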

Other observations

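Genes of cell division were bright in the DMSO cells. The 20 G2 and mitosis genes had a median percentile of 87.8, with 7 in the top 10% and 0 in the lowest 25%, and 0 of them had an SD above 0.3, against 7.86% of all genes and 1.18 to 2.62% of genes in the brightest 20% by level. PLK1, a mitotic kinase, was at 12.07 ± 0.21 (percentile 99.1), MKI67, the proliferation antigen Ki-67, at 11.44 ± 0.14 (percentile 97.3) and TOP2A, topoisomerase II alpha, at 11.28 ± 0.05 (percentile 96.5). Among 18 S phase genes the median percentile was 81.6, and RRM2, a ribonucleotide reductase subunit, was the brightest at 11.41 ± 0.06 (percentile 97.2).

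Interferon response genes had a median percentile of 42.1 over 13 members, 5 of them in the lowest 25%. B2M, the light chain of MHC class I, was at 12.05 ± 0.13 (percentile 99.0) and MX1, an antiviral GTPase, at 10.65 ± 0.16 (percentile 92.0), whereas OAS2, which makes the activator of RNase L, was at 7.74 ± 0.11 (percentile 3.93) and IFIH1, a sensor of viral RNA, at 7.84 ± 0.24 (percentile 6.89). IRF7, a factor that induces interferon genes, read 9.43, 8.70, 9.03 and 9.61, low in replicate 2. Immediate early genes, which serum and stress switch on within minutes, had a median of 58.8 over 16 members. IER3 was at 11.69 ± 0.16 (percentile 98.2), JUN at 10.51 ± 0.19 (percentile 90.4) and MYC at 10.41 ± 0.06 (percentile 89.2), while FOSB was at 7.68 ± 0.24 (percentile 2.59). EGR1, an early growth response factor, read 10.17, 9.91, 9.36 and 9.96, and replicate 3 was the lowest array for 9 of the 16 genes, against 23.3% of all genes.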
